A study of Mus musculus with 4 samples.

Results

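The regions described here are STAT3 ChIP-seq peaks in the mouse spinal cord that lie next to a centromere or on sequence without a place in the chromosomes. Members were chosen by position alone: every peak of either list whose centre lay below position 3500000 on chromosomes 1 to 19, and every peak on a sequence other than chromosomes 1 to 19, X, Y and M. This gave 895 of 125450 peaks, 603 of the 89039 in the sham list and 292 of the 36411 in the SCI (spinal cord injury) list. Of these, 329 sham and 130 SCI peaks lay at chromosome starts, and 274 and 162 lay on unplaced or unlocalised sequences.

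Both groups were C57BL/6 mice studied 7 days after surgery at thoracic level 9. Sham mice received the laminectomy (removal of the bone over the cord) alone, and SCI mice a moderate contusion of 60 kdyn. Each group has 1 STAT3 ChIP library and 1 input library, each made from pooled epicentre tissue of 3 mice, dissociated by enzymes and filtered, with no sort for a cell type in the protocols. Only the peak lists of the 2 ChIP libraries were analysed here, so no difference between sham and SCI has a replicate check, and no test between them was run. Peaks of 1 library are not replicates, so the shares below carry 95% exact binomial (Clopper-Pearson) intervals and the densities 95% exact Poisson intervals, both for counting error only. Read depth is unknown.

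Mouse chromosomes have their centromere at one end, embedded in long arrays of satellite repeats that assemblies leave largely as gaps. In the build mm10, assembled sequence begins near 3 Mb on each autosome, and the first stretch after it borders pericentromeric heterochromatin. Sequences that could not be ordered are kept apart, either assigned to a chromosome without a position or wholly unplaced. They are rich in repeats and in copies of genes, so reads from several genomic copies can pile up on a single assembled copy, and lists of artefact-prone regions are commonly used to mask such places. No such list was used here, and what extra copies add to these peaks was not tested. STAT3 itself is a transcription factor activated by cytokine receptors, and its dimers bind a palindrome in which TTC and GAA flank a short spacer.

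The sequence under most of these peaks is not given here, since no genome was used. RefSeq promoter windows (GRCm38.p6, whose primary chromosomes carry the mm10 coordinates) covered at least 100 bases upstream of a gene start under 4 member peaks, all of them in the sham list alone. They are shown because they are the only stretches whose bases can be set beside a peak. Each is the part of the peak that lies upstream of the gene start and inside the promoter window, 5′ to 3′ on the gene's strand. The bases within 10 of the deposited summit are in capitals. At Gm46840 the peak begins at 3230887, before the window, so its first bases are not shown and were not searched for a motif.
Gm46029 (chr8:3426855-3426990, minus strand): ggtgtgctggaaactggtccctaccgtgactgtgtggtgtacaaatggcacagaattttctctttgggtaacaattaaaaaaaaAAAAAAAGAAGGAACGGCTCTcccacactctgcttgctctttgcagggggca
Gm46840 (chr4:3230932-3231076, plus strand): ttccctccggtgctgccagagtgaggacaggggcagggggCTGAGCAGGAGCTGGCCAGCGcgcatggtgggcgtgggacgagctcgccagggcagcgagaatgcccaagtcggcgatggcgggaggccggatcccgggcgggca
Gm52295 (chr17:3408345-3408534, minus strand): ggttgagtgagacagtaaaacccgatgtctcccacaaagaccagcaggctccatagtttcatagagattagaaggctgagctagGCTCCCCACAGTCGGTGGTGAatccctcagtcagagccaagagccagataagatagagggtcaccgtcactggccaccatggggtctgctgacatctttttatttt
Gm45920 (chr7:3475037-3475226, minus strand): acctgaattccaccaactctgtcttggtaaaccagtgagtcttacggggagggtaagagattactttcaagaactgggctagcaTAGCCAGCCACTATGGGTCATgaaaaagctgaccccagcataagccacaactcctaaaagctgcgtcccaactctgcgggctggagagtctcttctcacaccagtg

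The score, the authors' own value for a peak's strength, was 26.1 for the peak at Gm46029 (top 4.36% of the sham list) and 14.6 at Gm46840. It was 10.3 at Gm52295 and 7.94 at Gm45920, close to the median of the list. The GC content of these stretches was 45.6% at Gm46029, 72.4% at Gm46840 and 50.5% at both Gm52295 and Gm45920. Their whole promoter windows of 300 bases had 50.7, 73.3, 48 and 53.3% in that order. The median over the 32851 RefSeq promoter windows was 52.7%. The STAT motif TTCNNNGAA, which reads the same on both strands, occurred in none of the windows of these 4 genes. It was also absent from the windows of Ppp1r14c and Myadm, touched by a sham peak, and of Tiam2, touched by an SCI peak. Over all windows 8.30% held it, and over the 122 windows at chromosome starts 7 did, 5.74%. Among the peaks at chromosome starts, 6 of 329 in sham (1.82%, interval 0.672 to 3.93%) and 1 of 130 in SCI overlapped a promoter window, against 0.562 and 0.559% of the peaks elsewhere on these chromosomes.

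Chromosome starts held about as many peaks per Mb as the rest of chromosomes 1 to 19. In sham the density was 34.6 peaks per Mb (interval 31.0 to 38.6) over the 9.5 Mb between 3 and 3.5 Mb, beside 35.0 per Mb in the rest. The SCI density was 13.7 per Mb (11.4 to 16.2), beside 14.3. Sham had 2.53 times as many peaks as SCI at chromosome starts, against 2.45 times in the rest of the genome. Both lists were sparse in the first 100 kb after the 3 Mb point, where sham had 31 peaks (16.3 per Mb, interval 11.1 to 23.2) and SCI 13 (6.84 per Mb, 3.64 to 11.7). In the next 400 kb the density lay between 37.9 and 42.6 per Mb in sham and between 13.7 and 16.8 in SCI. With the first 100 kb left out, an alternative chosen after these values were seen, the sham density was 39.2 per Mb and the SCI density 15.4. How much of the first 100 kb is gap sequence was not examined.

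**Figure D1:**
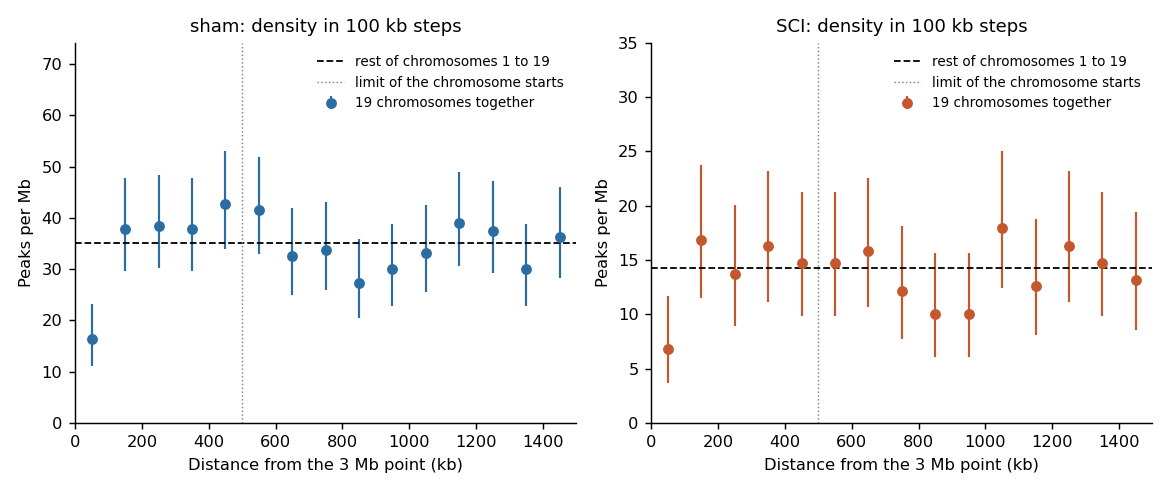
Peaks per Mb (y axis) in 100 kb steps from the 3 Mb point (x axis, kb), all 19 autosomes together, for sham (left) and SCI (right), with 95% exact Poisson intervals; the dashed line is the density of the rest of chromosomes 1 to 19 and the dotted line the limit of the chromosome starts. The first step, with 31 sham and 13 SCI peaks, is the lowest in both lists, and the later steps lie around the dashed line.

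The even average hid large differences between chromosomes. In 500 kb bins the median start held 16 sham and 6 SCI peaks, beside medians of 16 and 7 over the 4777 other bins. Chromosomes 7 and 11 had the most sham peaks at their start, 39 each. That was rank 4 of 284 bins on chromosome 7 and rank 9 of 237 on chromosome 11. Chromosome 11 also had the most SCI peaks at its start, 23, which was the highest count of its 237 bins, whereas chromosome 7 had 10. At the low end, chromosome 6 had 4 sham and 3 SCI peaks and chromosome 14 had 5 and 1. The start held more peaks than the chromosome's own median bin on 7 of 19 chromosomes in sham and on 6 in SCI, and fewer on 11 in both.

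**Figure D2:**
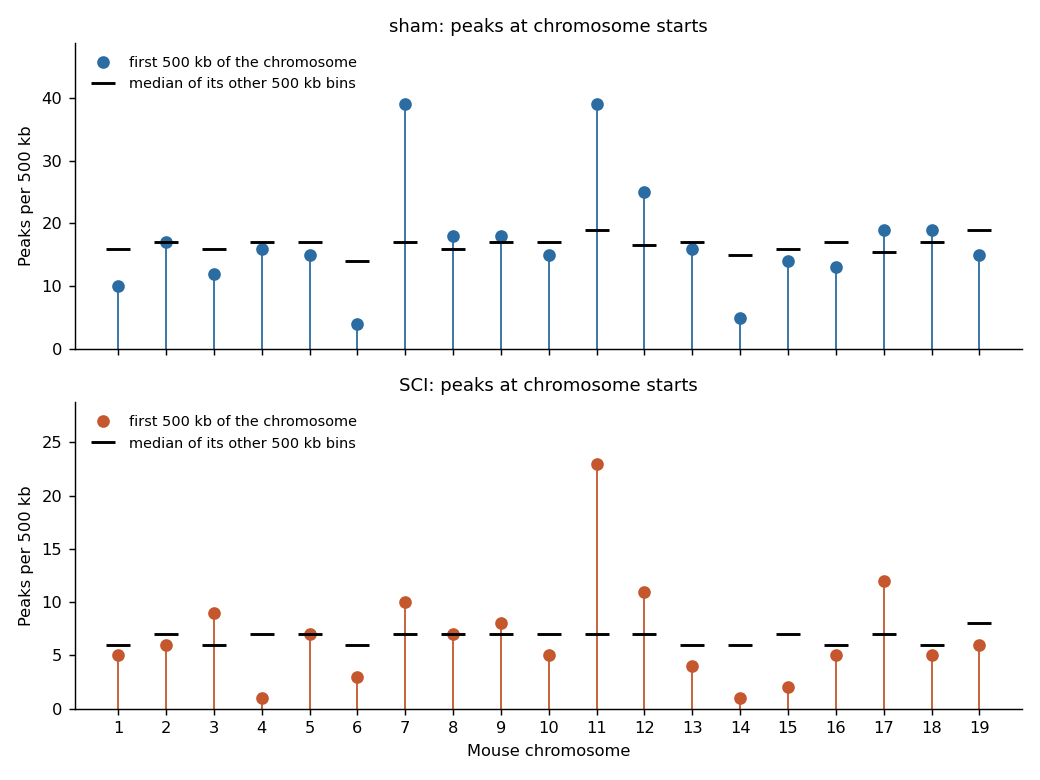
Number of peaks in the first 500 kb after the 3 Mb point (circles, y axis) of each autosome (x axis) in sham (top) and SCI (bottom), with the median of the other 500 kb bins of the same chromosome as a black bar. Chromosomes 7 and 11 stand out in sham with 39 peaks each and chromosome 11 in SCI with 23; most other starts lie near or below their bar.

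In median score, width and sharing the chromosome starts also lay close to the rest of each list, but the upper SCI scores were higher. The median score was 7.94 in sham (95% order-statistic interval 7.5 to 8.63) against 8.07 in the rest, and 8.01 in SCI (7.10 to 9.18) against 7.37. The upper quartile was 12.1 against 12.2 in sham and 11.9 against 10.2 in SCI. The usual width, 190 bp in sham and 164 bp in SCI, was that of 98.8% of the sham and 97.7% of the SCI peaks, against 99.0 and 99.4% in the rest. Sharing means here that a peak and some peak of the opposite condition have 1 bp or more in common. At chromosome starts 33 sham peaks were shared, 10.03% (7.01 to 13.8%), where all sham peaks gave 8.92%. The same 33 positions made up 25.4% of the SCI peaks (18.2 to 33.8%), where all SCI peaks gave 21.8%. Both shares therefore included the level of the whole list within their intervals. Near the limit of 3500000, the closest peaks inside were on chromosome 11 in sham (centre 2414 bp away, score 11.3) and on chromosome 1 in SCI (620 bp, 6.19). The closest outside were on chromosome 4 in sham (10 bp, 7.54) and on chromosome 16 in SCI (2729 bp, 8.67).

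A few peaks at chromosome starts were far above the others, and the highest of the SCI list had no sham peak over it. The SCI peak on chromosome 12 at 3109848 to 3110062 had a score of 1597, the highest of its list, and was 215 bp wide. The nearest sham peak was centred 12.2 kb away and had a score of 5, the minimum of the list. No gene lay within 5 kb, and the nearest, the pseudogene Gm48310, was 54.7 kb away. The SCI peak on chromosome 18 at 3005731 to 3005887 scored 184.8 and ranked 12. Its nearest sham peak was centred 24253.5 bp away, and its nearest gene, the vomeronasal receptor pseudogene Vmn1r-ps151, was 21092.5 bp away. Every other SCI peak at a chromosome start scored 34.3 or less.

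The highest sham peaks at chromosome starts lay at Sfi1 and at pseudogenes of Pisd, and these positions were shared with SCI. Sfi1 encodes a centrin-binding protein of the centrosome, and Pisd the mitochondrial phosphatidylserine decarboxylase. The transcribed pseudogene Pisd-ps2 (gene ID 328734) spans 3064318 to 3084183 on chromosome 17. Its highest sham peak, 3082365 to 3082541, scored 145.7 and ranked 29. The SCI peak there, at 3082417 to 3082580, scored 28.8 and ranked 352. Sfi1 (gene ID 78887) spans 3131850 to 3203347 on chromosome 11, with the gene Gm33862 near its highest peak. That sham peak, 3138577 to 3138731, scored 145.5 and ranked 30. The SCI peak at 3138637 to 3138688 was only 52 bp wide, scored 34.3 and ranked 185, and the centres were 8.5 bp apart. Pisd-ps1 (gene ID 236604) spans 3124002 to 3131945 on chromosome 11. A sham peak there, 3125935 to 3126053, scored 72.9 and ranked 85, while the SCI peak over it scored 11.9, in the top 17.3%. These 3 positions thus stood in the top 0.0955% of the sham list and in the top 17.3% or better of the SCI list. Scores of the 2 lists may be on different scales, so they are not compared with each other.

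Most other peaks along Sfi1 were in 1 list alone, as were most peaks of both whole lists. Within 5 kb of Sfi1 there were 15 sham peaks and 9 SCI peaks, of which 2 in each were shared. Over the whole lists 8.92% of the sham and 21.8% of the SCI peaks were shared, so few shared peaks are usual. The sham peaks reached from 3130019 to 3158827. The SCI peaks went on to 3174184, and the last of them scored 22.6 with no sham peak within 15.4 kb. Next to it on the chromosome, Pisd-ps1 had 4 sham and 3 SCI peaks within 5 kb, 1 of them shared, and some of these also count for Sfi1. Pisd-ps2 had 3 in each list, 2 of them shared. The functional gene Pisd lies far from the centromere on chromosome 5 (gene ID 320951, 32736301 to 32785642). It had 5 sham peaks with scores up to 16.1 and 1 SCI peak of 9.39, none shared. Pisd-ps3 (gene ID 66776) is given by the RefSeq table on an unplaced sequence at 52674 to 59689, without the name of that sequence. Among the unplaced sequences not assigned to a chromosome, the peaks of JH584304 and GL456379 reached past these coordinates. On JH584304 this span held 11 sham and 5 SCI peaks, 4 of them shared, and these included the sham peak of rank 5 (score 601.8) and the SCI peak of rank 6 (226.8). On GL456379 it held none in either list. JH584304 as a whole held 1.59 sham and 1.03 SCI peaks per kb, so peaks in such a span are usual there. Which sequence carries Pisd-ps3 was not determined.

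Besides these, the 10 highest sham peaks at chromosome starts included 3 shared positions, so 6 of the 10 were shared. With a score of 20 or more, 12 of 33 sham peaks at chromosome starts were shared (36.4%, 20.4 to 54.9%). In the rest of the genome it was 21.6% of 7799. On chromosome 2 the peak at 3050190 to 3050379 scored 58.1 with no gene within 5 kb. At Mrpl21, a mitochondrial ribosomal protein gene on chromosome 19, a peak at 3286633 to 3286822 scored 46.4, and a second one 3362 bp outside the gene scored 35.6. Ighmbp2, which encodes a helicase, lies within 5 kb of the first. The remaining 4 had no SCI peak over them. They were a 50 bp peak inside Asxl2, a Polycomb-associated gene on chromosome 12, with a score of 34.9, one inside the noncoding gene 2810429I04Rik on chromosome 13 (32.9), and peaks away from genes on chromosomes 13 (34.6) and 9 (32.8).

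In the SCI list, 5 of the 10 highest peaks at chromosome starts were shared. With a score of 20 or more, 4 of 7 SCI peaks at chromosome starts were shared (57.1%, 18.4 to 90.1%). In the rest of the genome it was 49.6% of 1283, so such sharing is usual for strong SCI peaks. Beside Sfi1 and Pisd-ps2, the shared ones among the 10 were a pair inside the noncoding gene 1110002L01Rik on chromosome 12, with scores of 29.7 and 21.5, and one at Gm42068, a pseudogene on chromosome 19 (19.1). The SCI peak of 29.7, at 3415019 to 3415182, met its sham partner (score 11.5) only at the edge, with centres 153 bp apart. The others without a sham partner were the peaks on chromosomes 12 and 18 described above, the peak of 22.6 in Sfi1, a peak inside the pseudogene Gm18774 on chromosome 12 (19.3) and one on chromosome 3 without a gene nearby (18.9). The shared positions were also ranked by the worse of their ranks in the 2 lists. Sfi1 and Pisd-ps2 led, followed by 2 positions on chromosome 17. The first, at 3237934 to 3238097 in SCI, had no gene within 5 kb. The second, at 3108684 to 3108847, was at A230045G11Rik and Gm21926. The rest of the best 10 lay at Mrpl21, at 1110002L01Rik (both positions), at Pisd-ps1, at the pseudogene Gm6667 on chromosome 10, and at Cdk6, a kinase of the G1 phase on chromosome 5. The position in Cdk6 scored 32.5 in sham and 10.1 in SCI, with centres 11 bp apart.

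Genes between 3 and 3.5 Mb had peaks about as often as genes elsewhere. The RefSeq table placed 230 genes wholly in these windows, of which 62 (27.0%) were protein-coding and 91 (39.6%) pseudogenes, against 44.1 and 18.7% on the rest of chromosomes 1 to 19. A peak centre lay inside or within 5 kb of 118 of the 230 genes in sham and of 70 in SCI. These are 51.3% (interval 44.6 to 57.9%) and 30.4% (24.6 to 36.8%), beside 54.9 and 32.8% of all genes on these chromosomes. For the protein-coding genes the counts were 41 of 62 in sham and 28 in SCI, 66.1% (53.0 to 77.7%) and 45.2% (32.5 to 58.3%), beside 68.3 and 45.0% of all. Both lists had a peak at 26 of the 62, 41.9% (29.5 to 55.2%), beside 38.3% of the protein-coding genes elsewhere. Sham alone had a peak at 15, SCI alone at 2 and neither at 19. Of the 20498 protein-coding genes elsewhere, 13993 had a sham peak, 9217 an SCI peak and 7855 both. Shares elsewhere for 1 list alone or neither were not computed from these, so the last counts are not read as a trait of these genes.

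These genes include Cacng7 and Cacng8, which encode auxiliary subunits of AMPA receptors and lie side by side on chromosome 7. Cacng7 had 7 sham and 3 SCI peaks with highest scores of 27.5 and 15.1, and Cacng8 had 6 and 1. Their neighbour Cacng6 had none in either list. Suv39h2 on chromosome 2, a methyltransferase that marks pericentromeric heterochromatin, had no peak in either list. Limk2, a kinase of actin dynamics on chromosome 11, had 4 sham and 6 SCI peaks, with highest scores of 16.5 and 6.35. Kif3c, a kinesin motor gene on chromosome 12, had 6 sham peaks (up to 13.7) and no SCI peak. The 2 genes with an SCI peak alone were Meig1, which takes part in sperm formation (2 peaks, up to 7.14), and H60c, a ligand gene for a natural killer cell receptor (1 peak, 7). The genes of this paragraph were picked after their values were seen.

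Unplaced and unlocalised sequences held many of the strongest peaks of both lists, and most of these lay on a single sequence. Peaks lay on 27 such sequences, 13 assigned to a chromosome and 14 to none. Of these, 24 had a sham peak, 22 an SCI peak and 19 both. JH584304 alone held 181 of the 274 sham and 116 of the 162 SCI peaks, spread over 114 kb in sham and 113 kb in SCI. Its density was 1.59 sham peaks and 1.03 SCI peaks per kb, 45.3 and 72.0 times that of the rest of chromosomes 1 to 19. Neighbouring peak centres were a median of 559.5 bp apart in sham and 672.5 bp in SCI, against 18321 and 45503 bp in the rest of the genome. Sham had 1.56 times as many peaks as SCI on JH584304 and 2.02 times as many on the other sequences, below the 2.45 times in the rest of the genome.

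Scores on JH584304 reached far above the rest of each list, but low ones were present as well. The median was 24.4 in sham (interval 17.5 to 32.2) and 15.9 in SCI (12.2 to 21), beside 8.07 and 7.37 in the rest, with a range from 5.03 to 936.8 in sham and from 5 to 379.0 in SCI. Of its peaks 34 in sham and 20 in SCI scored 100 or more. By definition the top 1.00% of each list by score holds 890 sham and 364 SCI peaks. JH584304 had 68 of its 181 sham peaks there (37.6%) and 40 of its 116 SCI peaks (34.5%), and 47 of the 100 highest sham and 31 of the 100 highest SCI scores. At chromosome starts 5 sham peaks (1.52%) and 5 SCI peaks (3.85%) were in the top 1.00%, against 0.920 and 0.875% in the rest.

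**Figure D3:**
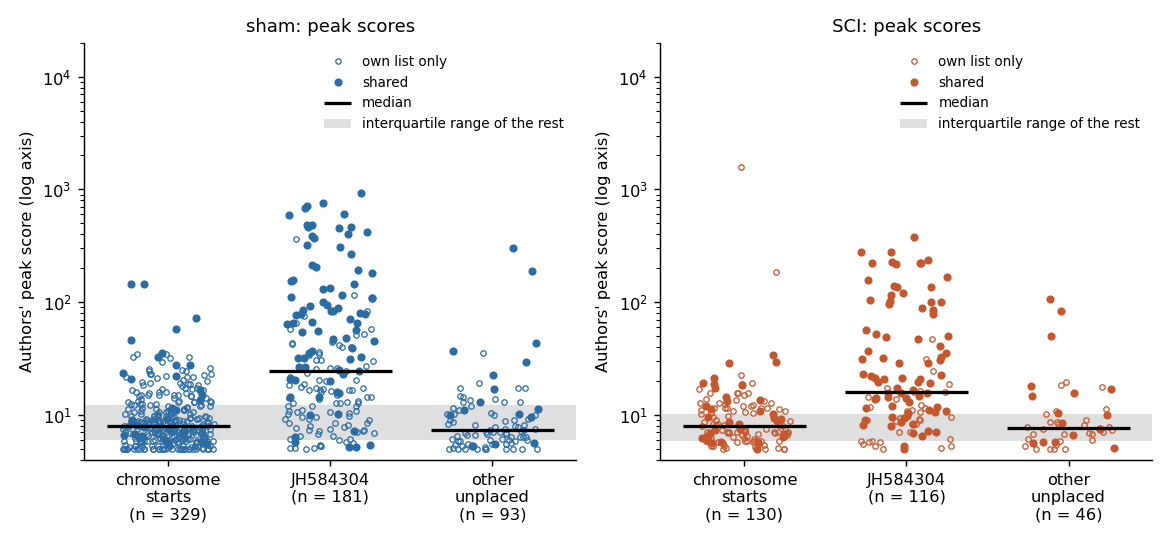
Authors' peak score (y axis, log scale) of every member peak in sham (left) and SCI (right), by location, with filled circles for peaks shared with the other list, open circles for the others, black bars for medians and grey for the interquartile range of the rest of the list. Peaks at chromosome starts and on other unplaced sequences centre within the grey band, while those on JH584304 spread up to 936.8 in sham and 379.0 in SCI; the highest open circle in SCI, at 1597, is the peak on chromosome 12.

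The highest peaks of JH584304 stood at the same places in both lists. All 10 highest sham peaks and all 10 highest SCI peaks on unplaced sequences were on JH584304 and shared. The first in both was at 10254 to 10521 in sham (score 936.8) and 10310 to 10505 in SCI (379.0). The peak at 5696 to 5908 in sham (682.1) met one at 5682 to 5909 in SCI (280.3). The sham peak at 8779 to 8948 (751.4, second of its list) had an SCI partner at 8779 to 8942 (221.4). The sham peak at 13613 to 13859 (711.8) had one at 13680 to 13870 (221.6). Others lay at 58517 to 58727 (601.8 in sham, 226.8 in SCI), at 70959 to 71100 (481.8 and 276.5), at 81510 to 81628 (460.6 and 219.8) and at 90642 to 90794 (461.1 and 166.9), in sham coordinates. The sham peaks at 103842 to 103982 (587.5) and 73072 to 73258 (481.8) had no partner among the 10 highest in SCI. The SCI peaks at 7641 to 7821 (235.9) and 14555 to 14700 (223.6) had none among the 10 highest in sham.

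High scores lay along most of the sequence, with a stretch of lower ones. In the first 20 kb the highest sham and SCI scores were 936.8 and 379.0. Between 20 and 40 kb no sham peak exceeded 54.9 and no SCI peak 24.6, although the 2 sections held 20 and 18 sham peaks and 9 and 6 SCI peaks. From 40 to 50 kb the highest scores were 307.2 in sham and 21.4 in SCI, and from 50 to 60 kb 601.8 and 226.8. From 70 to 80 kb the medians were the highest of the 12 sections, 110.2 in sham and 56.8 in SCI, followed by 80.6 and 48.7 from 100 to 110 kb. All SCI peaks beyond 100 kb were shared, 11 of 11 and 5 of 5 in the last 2 sections, whereas of 9 SCI peaks between 20 and 30 kb 3 were.

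**Figure D4:**
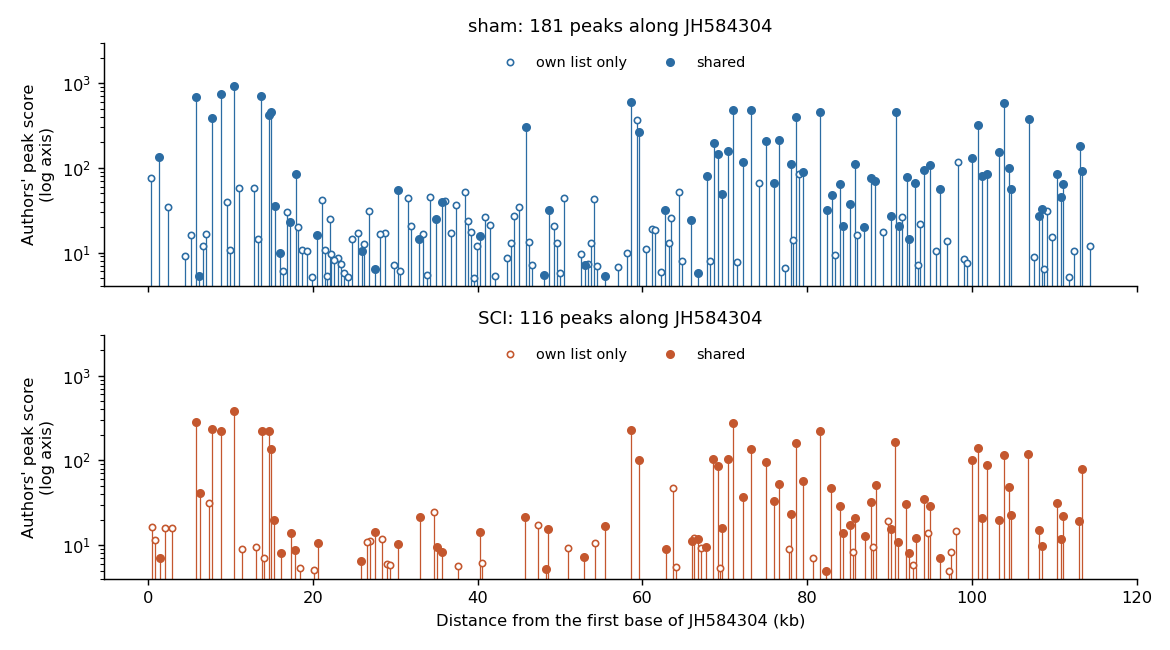
Authors' peak score (y axis, log scale) of the 181 sham (top) and 116 SCI (bottom) peaks against the distance from the first base of JH584304 (x axis, kb), with filled circles for peaks shared with the other list and open circles for the others. The tall shared peaks stand at matching distances in both panels, and between 20 and 40 kb none exceeds 54.9 in sham or 24.6 in SCI.

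Sharing was frequent on JH584304, and its scores went together between the lists. Of the sham peaks 80 were shared, 44.2% (36.8 to 51.8%), and of the SCI peaks 80, 69.0% (59.7 to 77.2%). Sham peaks covered 28.3% of their span on this sequence and SCI peaks 16.0% of theirs, and the part of this density in the sharing was not tested. Shares differed by score. Among SCI peaks with a score of 20 or more, 45 of 48 on JH584304 were shared (93.8%, 82.8 to 98.7%), against 49.6% of 1283 in the rest of the genome (46.8 to 52.3%). Among sham peaks with a score of 20 or more it was 67 of 99 (67.7%, 57.5 to 76.7%), against 21.6% of 7799 (20.7 to 22.5%). This bin has no upper limit, so strengths were not matched within it. On JH584304, 34 sham and 20 SCI peaks scored 100 or more, with highest scores of 936.8 and 379.0. In the rest of the genome the highest scores were 167.1 and 225.7. For scores from 5 to below 10 the shares on JH584304 were 16.7% of 42 sham peaks (6.97 to 31.4%) and 41.2% of 34 SCI peaks (24.6 to 59.3%), against 5.63 and 17.1% in the rest. From 10 to below 20 they were 15.0% of 40 sham peaks (5.71 to 29.8%), beside 12.4% in the rest, and 61.8% of 34 SCI peaks (43.6 to 77.8%), beside 32.5%. In sham the share on JH584304 thus lay close to the rest in this range and apart from it at 20 or more. The unshared sham peak with the highest score was at 59196 to 59372 (364.2), and its nearest SCI peak was centred 279 bp away. Of the 3 unshared SCI peaks of 20 or more the highest was a 54 bp peak at 63622 to 63675 (47.5).

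**Figure D5:**
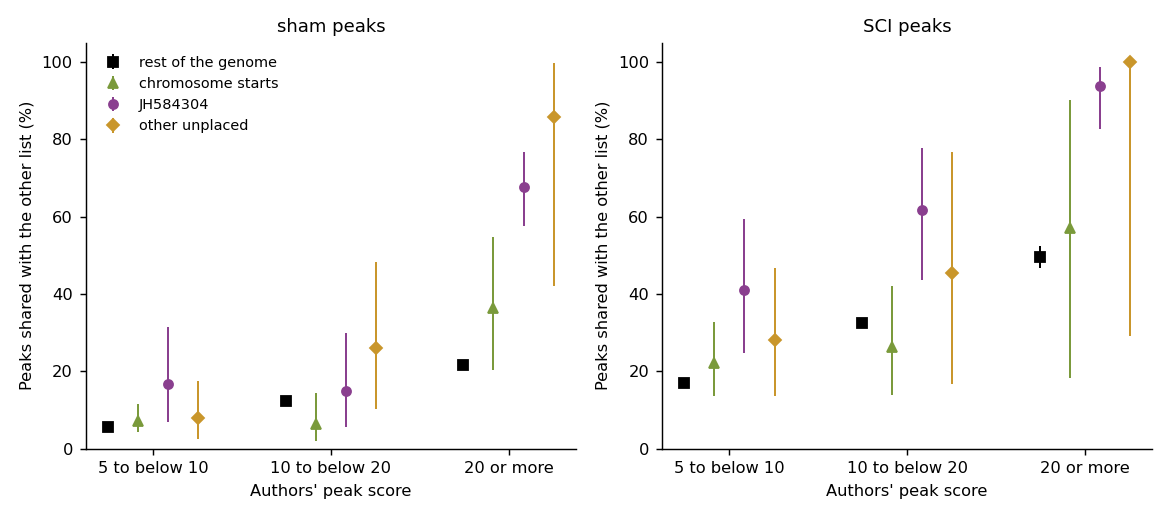
Share of peaks that overlap a peak of the other list (y axis, percent) by the authors' score (x axis) in sham (left) and SCI (right), with 95% exact binomial intervals, for the rest of the genome, chromosome starts, JH584304 and other unplaced sequences. At 20 or more, 67.7% of the sham and 93.8% of the SCI peaks on JH584304 are shared, against 21.6 and 49.6% in the rest. That bin has no upper limit, and scores on JH584304 reach higher in it than in the rest. The intervals of chromosome starts are wide because few peaks fall in the upper bins.

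Across the 80 shared pairs on JH584304 the sham and SCI scores had a Spearman rho of 0.80. It was 0.39 over the 33 pairs at chromosome starts, 0.52 over the 17 pairs on other unplaced sequences and 0.11 over the 7812 pairs in the rest of the genome. Pairs on a sequence share its libraries and its copies in the genome and are not independent, so these values are descriptions. The ranges of score also differ. Over all peaks, the interquartile range on JH584304 was 10.5 to 75.4 in sham and 9.33 to 47.1 in SCI. In the rest of the genome it was 6.02 to 12.2 and 5.90 to 10.2. The part of this difference in the rho values was not tested. The centres of a pair were a median of 29 bp apart on JH584304, 45.5 bp at chromosome starts and 52 bp in the rest. They were within 50 bp for 68.8, 54.5 and 49.0% of the pairs.

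Width and the form of the score also differed on JH584304. The usual width was that of 79.6% of its sham and 75% of its SCI peaks, against 99.0 and 99.4% in the rest of the genome. Only 8 sham peaks were wider than 190 bp, up to 268 bp, and all 8 were on JH584304. Of the 8 SCI peaks wider than 164 bp, 6 were on JH584304, 1 was the peak on chromosome 12 and 1 was in the rest of the genome. Narrower peaks were also frequent, 29 in sham and 23 in SCI. Many scores in both lists can be turned into a whole number (tolerance 0.0001) by adding 1, halving and squaring, so that they take a limited set of values. This form was found for 22.9% of the sham and 33.1% of the SCI peaks in the rest of the genome, and for 22.8 and 30.8% at chromosome starts. On JH584304 it was 1 of 181 sham peaks (0.552%) and 16 of 116 SCI peaks (13.8%). The −log10 value that stands in the place of a q-value was at its highest level, 4.05 in sham and 4.36 in SCI, for 74.0% of the sham and 75% of the SCI peaks on JH584304, against 31.5 and 31.4% in the rest. At chromosome starts the sham peaks at this level were those with a score of 10.9 or more, so the level followed the score there. Neither the form nor this level was compared at matched scores.

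Most other unplaced sequences carried few peaks of ordinary strength, with 3 exceptions among those not assigned to a chromosome. On GL456392 the sham peak at 22134 to 22227 scored 302.1 and ranked 19, and the SCI peak at 22102 to 22265 scored 107.6 and ranked 23. A further pair of shared positions lay within 1 kb of it on that sequence, at 22587 to 22776 (36.9 in sham, 7.51 in SCI) and 22959 to 23148 (43.1 and 14.8), in sham coordinates. On GL456389 each list had a single peak, at 10585 to 10676 in sham (score 190.9, rank 24) and 10565 to 10728 in SCI (82.9, rank 33). On GL456396 the SCI peak at 11919 to 12082 scored 49.7 and ranked 54, while the sham peak over it scored 9.59, in the top 38.2%.

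Without JH584304, the unplaced sequences had a median score of 7.39 in sham and 7.65 in SCI, close to the rest of each list. Of these peaks 17 of 93 in sham (18.3%, 11.02 to 27.6%) and 17 of 46 in SCI (37.0%, 23.2 to 52.5%) were shared. Both intervals lie above the level of the whole list, 8.92 and 21.8%. Among these sequences, GL456211 and GL456212, both assigned to chromosome 1, held the most sham peaks, 16 and 12, with 7 and 1 in SCI. JH584299, assigned to chromosome 5, had 8 and 6 peaks, 2 of them shared in each list. A sham peak alone was found on JH584292, JH584296, GL456367, GL456370 and GL456383, with 1 to 3 peaks each and scores up to 19.1 on GL456383. GL456216, GL456359 and GL456366 had 1 SCI peak each and no sham peak, and the one on GL456366 scored 19.5. The remaining sequences with peaks in both lists were GL456210 (5 sham and 4 SCI peaks), GL456221 (9 and 3), GL456233 on chromosome X (5 and 3), GL456239 (5 and 2), GL456360 (1 and 1), GL456368 (2 and 2), GL456378 (2 and 1), GL456379 (1 and 2), JH584293 (1 and 1), JH584294 (1 and 2), JH584297 (2 and 2) and JH584298 (2 and 1). Their highest score was 35.8, on GL456221 in sham.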

How the data were processed

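STAT3 ChIP-seq peak lists of 1 sham and 1 SCI library were used, matched to samples by title; the inputs were not analysed here. The submitters' processing notes name Bowtie2 and the build mm10. For the program that called peaks, its control and its cutoff, nothing is stated in the sources used here. The authors deposited a score for each peak, 5 or more in every row, and a −log10 value in the place of a q-value; the meaning of both is taken from the column order. Scores were used within a list only. No per-sample column was left unmapped.

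Members and lists were chosen with earlier results of these data known. Overlaps, densities in 500 kb bins and 100 kb steps, and medians were computed as described in the report. Lengths ran from 3 Mb to the last peak of each chromosome. Genes came from RefSeq (GRCm38.p6); 328 of its rows below 3 Mb on chromosomes 1 to 19 belong to unlocalised sequences it does not name and were set aside. Named peaks are the 10 highest per list at chromosome starts and on unplaced sequences, and the 10 best shared positions at chromosome starts; named genes lie within 5 kb of them, or are Sfi1, Pisd or a Pisd pseudogene. Every unplaced sequence with a peak is named. Chosen outside this rule, after their values were seen, were the promoter peaks and their genes, the nearest genes of peaks with none within 5 kb, the protein-coding genes from Cacng7 to H60c, the unshared peaks on JH584304 and the single peaks given on GL456392, GL456389 and GL456396. The overlap count was tested on simulated data. The alternatives changed the limit of 3.5 Mb, the lowest score, the list length, the overlap rule, the merging of peaks and the length of the starts, or left out JH584304. Scripts ran under Python 3.11.15 with scipy 1.17.1 for intervals, pandas 2.3.3 and numpy 2.4.6 for tables and matplotlib 3.10.9 for plots.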

Additional observations from a re-analysis of the deposited data

How the results depend on the processing

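Of 76 values recomputed for 12 results under the alternatives, 46 stayed near the reported value and 30 moved away from it. Near means within 1.5 times the reported number for the number of members, and within the 95% interval of the reported value for densities, shares and medians. With the limit at 3.2 Mb the sham members numbered 377 and the sham density at chromosome starts was 27.1 peaks per Mb (22.1 to 32.9). That is below the 35.0 per Mb of the rest in the main setting. With the limit at 4 Mb there were 917 sham members and 33.8 per Mb (31.3 to 36.6). With only peaks of score 10 or more, the members were 279 in sham and 145 in SCI, and the densities 11.6 and 5.16 per Mb. The median scores then became 15.2 and 13.3 at chromosome starts and 30.8 and 21.3 on unplaced sequences, and 70.8% of the SCI peaks on unplaced sequences were shared, in place of 59.9%, where the whole SCI list then gave 22.6%. When only the 36411 highest sham peaks were kept, the sham members numbered 304, with 13.3 per Mb at chromosome starts. Their medians were 14.4 at chromosome starts and 26.9 on unplaced sequences, where 48.9% were shared, in place of 35.4%. The share over the whole sham list went from 8.92 to 14.1% under the same setting. The shared part of the SCI peaks at chromosome starts fell to 13.1%, where the whole SCI list then gave 14.1%. Under both settings the lower counts and densities and the higher medians follow from leaving out low scores. What moved the shares was not tested. Without JH584304 the SCI members numbered 176, and on unplaced sequences 18.3% of the sham and 37.0% of the SCI peaks were shared, with medians of 7.39 and 7.65. When an overlap of 50% of both peaks was asked for, the shares on unplaced sequences were 25.2% in sham and 42.6% in SCI, where the whole lists gave 6.04 and 14.8%. With centres within 100 bp the SCI share was 51.2%. With centres within 1000 bp the shares were 66.4 and 84.6%, where the whole lists gave 11.5 and 27.1%. Neighbouring peak centres on JH584304 were a median of 559.5 bp apart in sham and 672.5 bp in SCI, closer than this distance. At such spacing a peak can meet this rule without agreement of positions, so this setting cannot show agreement. The part of the spacing in these shares was not tested. Counted from the first peak of each chromosome the sham density was 40.4 per Mb (36.1 to 45.0), above the 35.0 of the rest. Without the first 100 kb, an alternative chosen after seeing the data, it was 39.2 (34.9 to 43.9). The density of the rest was not recomputed under the score and list-length settings. No paired analysis was possible because each condition has 1 library and no result comes from a test. Depth is unknown, so a peak in 1 list alone may have been missed in the other.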
